A study of Mus musculus with 7 samples.

Results

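The 9 very long genes Auts2, Fhit, Pde4d, Camta1, Tenm4, Mecom, Rbfox1, Kcnip4 and Nkain2 held 1452 of 326695 regions of open chromatin in the embryonic mouse gut. A region is a stretch covered by a peak in at least 1 of 7 libraries, formed by merging peaks that overlapped by at least 1 bp on chromosomes 1 to 19 and X. A region was counted for a gene where that gene's body was the nearest of 21631 protein-coding gene bodies and lay within 100 kb (GRCm38/mm10). The 9 genes were picked from earlier region counts of these same libraries, for an uneven division of their regions between organs. The counts per organ below are therefore a description, and no test was made on them. The bodies ran from 558 kb in Mecom to 1612 kb in Fhit and ranked between 10 and 185 by length among the 21631 genes, whose median length was 17.3 kb.

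ATAC-seq uses a transposase that inserts adapters where DNA is not wrapped in nucleosomes, so that its peaks mark promoters, enhancers and other open stretches. In very long genes most open stretches lie in introns, far from the start of transcription, where enhancers of the same or of a neighbouring gene can reside. In the gut the transcription factor SOX2 is known for its role in the foregut and stomach, and CDX2 for its role in the intestine. Among the 9 genes, 4 encode nuclear or RNA-binding regulators. Auts2 encodes a nuclear protein found with Polycomb complexes and named for its link to autism. Camta1 encodes a calmodulin-binding transcription activator, Mecom a zinc finger transcription factor of blood stem cells, and Rbfox1 a splicing factor of neurons and muscle. Pde4d, a phosphodiesterase that degrades cyclic AMP, and Fhit, a hydrolase of dinucleoside polyphosphates that spans a fragile site in human, encode enzymes. Tenm4 encodes a teneurin, a large transmembrane protein of cell contacts. Kcnip4 encodes a calcium sensor that binds voltage-gated potassium channels, and Nkain2 a membrane protein that interacts with the sodium pump.

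There were 7 libraries, 1 per group. The group labelled Sox2 KO was E16 stomach, and the sources used here do not state its allele, the driver of the deletion, the part of the stomach or the isolation. The other E16 groups were hindstomach, forestomach, intestine and colon, and the E13 groups were stomach and intestine. Per the labels' protocols these embryos were ShhCre;R26YFP/+, taken on embryonic day 16.5 or 13.5, so that a yellow fluorescent reporter is switched on in the lineage of Shh-expressing cells, here the gut epithelium. E13 cells were freed with trypsin from whole organs, pooled over several embryos and sorted. At E16 the forestomach was treated with dispase, peeled and digested with collagenase, whereas hindstomach, proximal small intestine and colon were shaken in EDTA, so stage and isolation cannot be told apart, and neither can the forestomach and its isolation.

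With 1 library per group no spread between replicates exists and no difference between groups was tested. The ranges in parentheses after shares are 95% Wilson intervals; they cover only counting error. The lists give no read depth or peak height. They held between 81179 peaks in E13 intestine and 135743 in colon on the chromosomes used, and the median peak width lay between 108 bp (E13 intestine) and 178 bp (forestomach). Near Sox2 itself, 13 regions were found in the KO library, with 1 inside the gene body, against 12 and 2 in hindstomach and 9 and 1 in E13 stomach; such peaks do not check a deletion. All 8 epithelial marker genes (Epcam, Cdh1, Krt8, Krt18, Cldn7, Grhl2, Esrp1 and Ovol1) had regions in every library, with summed levels between 5.33 and 8.65 per 10000 regions of a library. Summed over each list, markers of other cells were not at 0. Neural crest and neuron genes had 2.58 to 4.81 per 10000 and mesenchyme genes 2.50 to 4.23. Blood and immune genes had 2.41 to 4.81 and endothelial genes 2.14 to 3.36. Single genes were at 0 in some libraries, such as Sox10 in hindstomach, forestomach, E16 intestine and colon. The part of other cells in the results was not tested.

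Promoter sequences of 8 of the 9 genes were matched in RefSeq (GRCm38.p6), each from 250 bases before to 50 bases after an annotated start, which gave 13 promoters. Of the 5 below, 3 are shown because only some libraries had a peak on them, and Kcnip4 promoter 2 and Fhit promoter 1 because they hold the most motif matches and had a peak in every library. Capitals mark matches, on either strand, to the CDX motif TTTATNG, the SOX motif ATTGTT, the GATA motif AGATAA, the FOXA motif TGTTTAC or the AP-1 motif TGANTCA; all other bases are in lower case.
Kcnip4 promoter 1, chr5:48599633-48599932, minus strand: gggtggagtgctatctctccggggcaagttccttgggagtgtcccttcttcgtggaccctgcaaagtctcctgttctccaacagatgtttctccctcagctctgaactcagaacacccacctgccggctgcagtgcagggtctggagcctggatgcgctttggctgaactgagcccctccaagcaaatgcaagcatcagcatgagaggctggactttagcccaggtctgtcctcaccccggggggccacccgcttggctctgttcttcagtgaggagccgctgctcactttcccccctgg
Kcnip4 promoter 2, chr5:49285610-49285909, minus strand: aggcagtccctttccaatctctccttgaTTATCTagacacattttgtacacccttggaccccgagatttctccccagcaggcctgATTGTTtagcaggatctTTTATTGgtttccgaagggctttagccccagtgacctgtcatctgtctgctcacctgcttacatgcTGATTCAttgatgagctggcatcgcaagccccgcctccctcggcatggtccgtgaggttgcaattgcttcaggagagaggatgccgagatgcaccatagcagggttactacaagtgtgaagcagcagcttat
Nkain2 promoter, chr10:32889866-32890165, minus strand: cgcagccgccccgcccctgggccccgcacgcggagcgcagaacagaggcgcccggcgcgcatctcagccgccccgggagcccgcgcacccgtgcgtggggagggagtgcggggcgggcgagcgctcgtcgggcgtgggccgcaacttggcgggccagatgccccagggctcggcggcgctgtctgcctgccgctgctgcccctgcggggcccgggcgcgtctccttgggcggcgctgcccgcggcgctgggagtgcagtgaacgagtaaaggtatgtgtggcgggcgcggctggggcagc
Pde4d promoter, chr13:108653927-108654226, plus strand: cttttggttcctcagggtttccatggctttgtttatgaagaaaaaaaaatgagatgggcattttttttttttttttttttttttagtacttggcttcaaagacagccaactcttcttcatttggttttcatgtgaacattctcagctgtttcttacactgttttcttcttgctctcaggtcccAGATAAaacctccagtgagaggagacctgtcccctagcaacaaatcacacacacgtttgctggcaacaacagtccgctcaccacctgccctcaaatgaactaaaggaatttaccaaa
Fhit promoter 1, chr14:10453409-10453708, minus strand: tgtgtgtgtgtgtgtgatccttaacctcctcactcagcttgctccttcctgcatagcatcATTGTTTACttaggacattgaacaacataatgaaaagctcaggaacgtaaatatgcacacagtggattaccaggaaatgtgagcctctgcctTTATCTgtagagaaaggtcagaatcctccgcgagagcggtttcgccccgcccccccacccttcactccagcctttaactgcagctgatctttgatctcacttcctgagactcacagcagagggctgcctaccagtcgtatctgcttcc
Kcnip4 promoter 1 was overlapped by peaks of the KO, E13 stomach and E13 intestine libraries, over 63, 139 and 197 bases, and by none of the other E16 libraries. It held no match to the 5 motifs. Kcnip4 promoter 2, also at an inner start, was overlapped in all 7 libraries and held 4 matches, a CDX, a SOX, a GATA and an AP-1 match. The CpG-rich Nkain2 promoter, with 43 CpG dinucleotides and 78.7% G+C, was overlapped over all 300 bases in the KO and E13 stomach libraries. It was overlapped over 131 bases in forestomach and 232 in E13 intestine, and not in hindstomach, E16 intestine or colon, whose peaks lay beside it in the same merged region. Peaks of the KO, hindstomach and E13 stomach libraries reached into the Pde4d promoter over 118, 69 and 91 bases, and no other library did. Fhit promoter 1, at an inner start, was overlapped in all 7 libraries and held 3 matches; its SOX and FOXA matches overlap each other. Among the promoters not printed, those of Camta1 and the outer start of Fhit were overlapped in all 7 libraries, and both promoters each of Tenm4, Mecom and Rbfox1 in none. Of 32851 RefSeq mouse promoters of this length, 10.9% held the CDX letters, 10.7% the SOX, 11.2% the GATA, 3.65% the FOXA and 7.81% the AP-1 letters, and a match is not a shown binding site.

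Per 100 kb of gene body, the 9 genes ran from the most densely occupied of the long genes to the sparser ones. Merged over all libraries, Mecom held 24.2 regions per 100 kb and ranked 1 of the 227 protein-coding genes of at least 500 kb. Camta1 held 17.9 (rank 13), Auts2 16.6 (rank 23), Tenm4 16.4 (rank 27) and Pde4d 14.8 (rank 45). Fhit and Rbfox1 both held 11.2 (ranks 94 and 96). Nkain2 held 7.20 (rank 181) and Kcnip4 7.13 (rank 184), so both lay in the sparser part of that set. Within single libraries the median of the 9 members was 4.97 per 100 kb in the KO library, 4.33 in hindstomach, 2.62 in forestomach, 3.61 in E16 intestine, 5.54 in colon, 4.22 in E13 stomach and 2.30 in E13 intestine. The median of the other 218 long genes was lower in every library, at 2.35, 2.59, 1.99, 2.53, 4.28, 2.37 and 2.08 in the same order. Over all protein-coding gene bodies together the density was higher still in every library, from 3.84 in E13 intestine to 5.84 in the KO library. Since region counts of these libraries chose the members, nothing is read from their higher density than that of the other long genes.

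**Figure D1:**
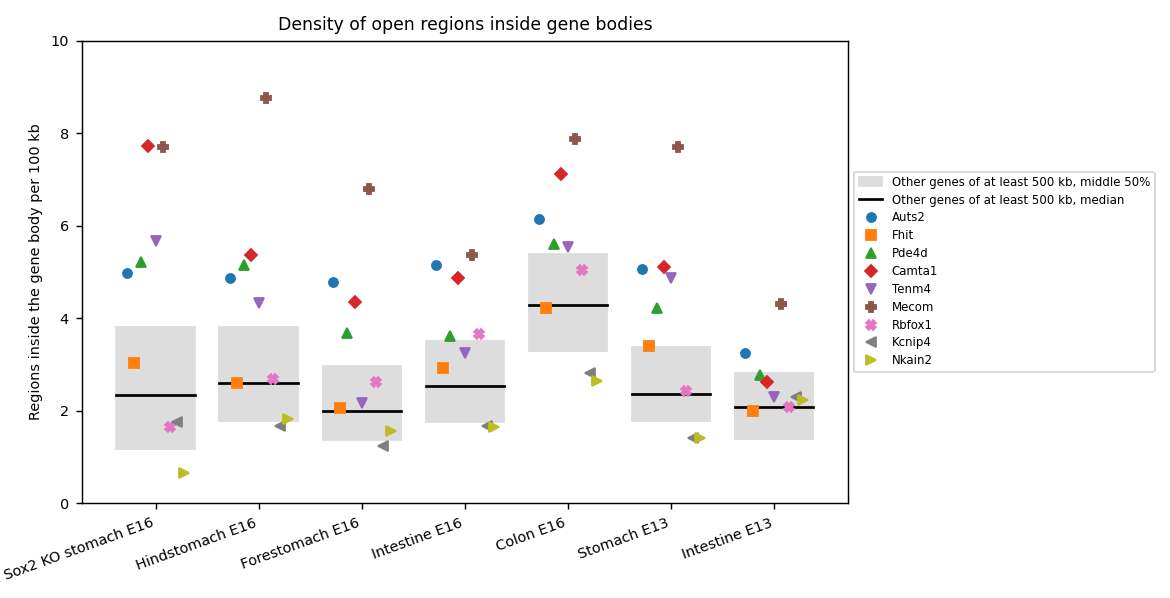
Regions inside the gene body per 100 kb (vertical axis) for the 9 genes in each of the 7 libraries; grey boxes span the middle 50% of the other 218 genes of at least 500 kb and black lines their median. Mecom was the densest member in 6 libraries, Camta1 with 7.73 in the KO library, and Nkain2 in the KO library was the sparsest value at 0.662.

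Together the 9 genes held 400 regions in the KO library, 414 in hindstomach, 328 in forestomach, 390 in E16 intestine, 561 in colon, 393 in E13 stomach and 278 in E13 intestine. These made up 0.384% of the regions in the KO library, 0.381% in hindstomach, 0.385% in forestomach, 0.413% in E16 intestine, 0.421% in colon, 0.427% (0.387 to 0.471) in E13 stomach and 0.372% (0.331 to 0.418) in E13 intestine. The intervals of the highest and the lowest joint share overlapped, whereas single genes differed more.

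The nuclear regulators differed in how their regions were spread over the libraries. Auts2 (gene ID 319974, chr5:131437333-132543220) had 213 regions in all. It had 59 in the KO library, 64 in hindstomach, 57 in forestomach, 71 in E16 intestine, 81 in colon, 64 in E13 stomach and 38 in E13 intestine. As a share of each library, E16 intestine was highest at 7.52 per 10000 regions (5.96 to 9.48) and E13 intestine lowest at 5.08 (3.70 to 6.97), with overlapping intervals. All 7 intervals of Auts2 overlapped, and the longest list, colon, had the largest count.

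Mecom (gene ID 14013, chr3:29951296-30509759) had 159 regions, with 46 in the KO library, 54 in hindstomach, 46 in forestomach, 35 in E16 intestine, 54 in colon, 50 in E13 stomach and 30 in E13 intestine. Its share was highest in forestomach at 5.39 per 10000 (4.04 to 7.19) and in E13 stomach at 5.43 (4.12 to 7.16). It was lowest in E16 intestine at 3.71 (2.67 to 5.15). The 4 stomach libraries, at 4.42 to 5.43, all lay above the 3 intestinal libraries, at 3.71 to 4.05, but the intervals of all 7 overlapped.

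Camta1 (gene ID 100072, chr4:151059523-151861768) had 147 regions, with 62 in the KO library, 44 in hindstomach, 35 in forestomach, 41 in E16 intestine, 60 in colon, 41 in E13 stomach and 21 in E13 intestine. The KO library had the highest share at 5.96 per 10000 (4.65 to 7.64). E13 intestine had the lowest at 2.81 (1.84 to 4.29), an interval that did not overlap that of KO, and the other 5 libraries lay between 4.05 and 4.51. Of its regions 46.3% (38.4 to 54.3) were found in 1 library, the lowest share of the 9 genes.

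Rbfox1 (gene ID 268859, chr16:5884793-7412480) went the other way. It had 193 regions, with 27 in the KO library, 44 in hindstomach, 43 in forestomach, 63 in E16 intestine, 87 in colon, 41 in E13 stomach and 35 in E13 intestine. The KO library had the lowest share at 2.60 per 10000 (1.78 to 3.78). E16 intestine, at 6.67 (5.22 to 8.54), and colon, at 6.53 (5.30 to 8.06), had the highest, and neither interval overlapped that of KO. The remaining libraries lay between 4.05 in hindstomach and 5.04 in forestomach.

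**Figure D2:**
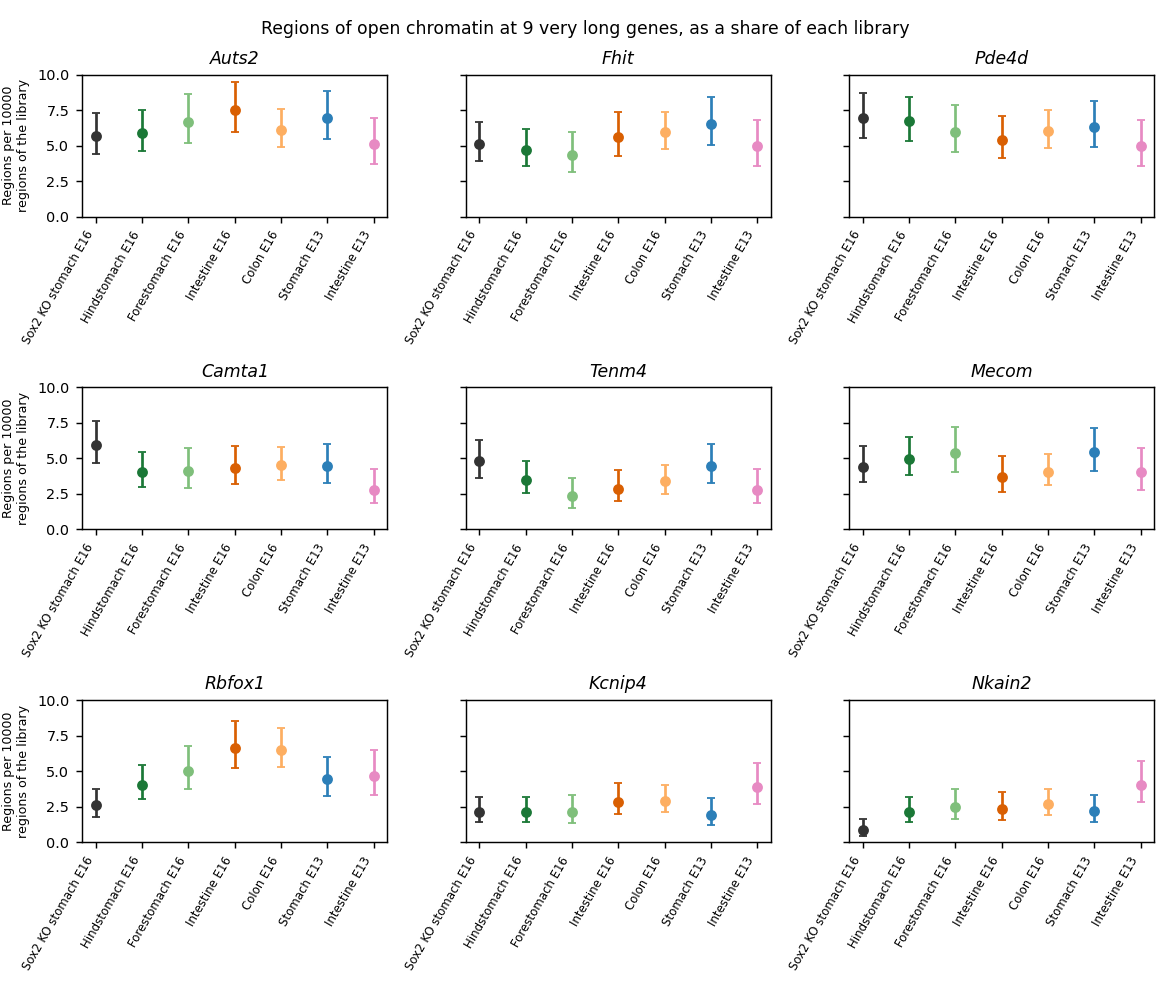
Regions of each gene per 10000 regions of the library (vertical axis) in the 7 libraries; points are single libraries and bars 95% Wilson intervals, which cover counting error only. Rbfox1 was highest in E16 intestine and colon, Camta1 and Tenm4 in the KO library, and Kcnip4 and Nkain2 in E13 intestine, while the KO library held the lowest Nkain2 value at 0.865.

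Of the genes for enzymes, Pde4d (gene ID 238871, chr13:108654177-109955969) had 211 regions, with 72 in the KO library, 73 in hindstomach, 51 in forestomach, 51 in E16 intestine, 80 in colon, 58 in E13 stomach and 37 in E13 intestine. Its shares were highest in the KO library at 6.92 per 10000 (5.50 to 8.71) and in hindstomach at 6.71 (5.34 to 8.44), and lowest in E13 intestine at 4.95 (3.59 to 6.82), with overlapping intervals. Fhit (gene ID 14198, chr14:9550092-11162061) had 205 regions, with 53 in the KO library, 51 in hindstomach, 37 in forestomach, 53 in E16 intestine, 79 in colon, 60 in E13 stomach and 37 in E13 intestine. Forestomach had the lowest Fhit share at 4.34 per 10000 (3.15 to 5.98) and E13 stomach the highest at 6.52 (5.06 to 8.39). Neither gene had a library whose interval stood clear of all others.

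Among the genes for membrane proteins, Tenm4 (gene ID 23966, chr7:96171244-96911093) had 134 regions, with 50 in the KO library, 38 in hindstomach, 20 in forestomach, 27 in E16 intestine, 45 in colon, 41 in E13 stomach and 21 in E13 intestine. Its share was highest in the KO library at 4.81 per 10000 (3.65 to 6.33) and next in E13 stomach at 4.45 (3.28 to 6.04). It was lowest in forestomach at 2.34 (1.52 to 3.62), an interval just below that of KO. For Tenm4 the stomach libraries thus spanned the whole range, from the lowest share to the highest.

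Kcnip4 and Nkain2, the most sparsely occupied members, had their highest shares in E13 intestine, the shortest list. Kcnip4 (gene ID 80334, chr5:48389503-49525122) had 94 regions, with 22 in the KO library, 23 in hindstomach, 18 in forestomach, 27 in E16 intestine, 39 in colon, 18 in E13 stomach and 29 in E13 intestine. The share was lowest in E13 stomach at 1.95 per 10000 (1.24 to 3.09), against 3.88 (2.70 to 5.57) in E13 intestine, and the intervals overlapped. Nkain2 (gene ID 432450, chr10:31689310-32897174) had 96 regions, with 9 in the KO library, 23 in hindstomach, 21 in forestomach, 22 in E16 intestine, 36 in colon, 20 in E13 stomach and 30 in E13 intestine. The KO share of Nkain2 was 0.865 per 10000 (0.455 to 1.64) and that of E13 intestine 4.01 (2.81 to 5.72), with the other 5 libraries between 2.12 and 2.70. The KO interval overlapped those of hindstomach, forestomach, E16 intestine and E13 stomach, but not those of colon and E13 intestine. The neural crest and neuron markers had a summed level of 3.36 per 10000 in the KO library, 3.31 in hindstomach, 2.58 in forestomach, 3.92 in E16 intestine, 3.90 in colon, 4.34 in E13 stomach and 4.81 in E13 intestine. The KO library and hindstomach were close in these markers, with 35 and 36 regions. E13 intestine was highest both in these markers and in Nkain2. The part of the markers in the Nkain2 values was not tested.

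The comparison of stomach with intestine at E13 addressed how the organs of the early gut tube differ. Regions with a peak in 1 library of a pair and none in the other are called unshared, and their ratio is log2 of the counts, with 0.5 added to each. Tenm4 had 25 regions in E13 stomach alone, 5 in E13 intestine alone and 16 in both, a log2 ratio of 2.21, the largest of the 9. In the same order, Camta1 had 27, 7 and 14 (log2 1.87). Auts2 had 42, 16 and 22 (1.36). These genes, and also Mecom, Pde4d and Fhit, had more regions in E13 stomach. Mecom had 34, 14 and 16 (1.25). Pde4d had 36, 15 and 22 (1.24). Fhit had 45, 22 and 15 (1.02). Kcnip4 and Nkain2 stood the other way. Kcnip4 had 9, 20 and 9 (-1.11) and Nkain2 13, 23 and 7 (-0.80), while Rbfox1 had 27, 21 and 14 (0.36).

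In that pair 6 of the 9 members were at least 2-fold towards stomach and 1 towards intestine. Among all 1638 protein-coding genes with at least 10 unshared regions, 33.8% were at least 2-fold towards stomach and 2.26% towards intestine. Since these counts chose the members, nothing is read from the difference. The median log2 ratio was 1.24 over the members and 0.63 over all genes counted, and the regions of the whole genome together had a ratio of 0.59. With that genome-wide ratio subtracted, 2 members were at least 2-fold towards stomach (Tenm4 and Camta1) and 2 towards intestine (Kcnip4 and Nkain2). With the widest 81179 peaks of each list, as many as the shortest list holds, the counts were 2 and 2 as well.

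At E16 the pair was hindstomach against proximal small intestine, not whole organs as at E13, so stage, part of the organ and isolation cannot be told apart. Every ratio but that of Rbfox1 was smaller in size than at E13, and 4 genes had the opposite sign. For 2 of these 4, Rbfox1 and Nkain2, the signs were no longer opposite with the genome-wide ratios subtracted. Camta1 then had opposite signs, at -0.22 at E16 and 1.28 at E13. In hindstomach against intestine, Mecom had 37 regions in hindstomach alone, 18 in intestine alone and 17 in both (log2 1.02), and Pde4d 44, 22 and 29 (0.98). Rbfox1 had 22, 41 and 22 (-0.88) and Kcnip4 11, 15 and 12 (-0.43). Tenm4 stood at 0.74, Camta1 at 0.19, Nkain2 at 0.10, Fhit at -0.10 and Auts2 at -0.27. At least 2-fold towards hindstomach was 1 of 9 members, against 29.4% of 2375 genes counted, and towards intestine 0, against 4.17%. With the widest 81179 peaks of each list, 2 members were at least 2-fold towards intestine, Rbfox1 at -1.20 and Fhit at -1.03. Away from gene ends 0 were at least 2-fold towards hindstomach; with the genome-wide ratio of 0.41 subtracted Mecom stood at 0.61 and Rbfox1 at -1.29, that is 0 towards hindstomach and 1 towards intestine.

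Within the E16 stomach, hindstomach was set against forestomach, the glandular against the squamous part. Tenm4 had 25 regions in hindstomach alone, 7 in forestomach alone and 13 in both (log2 1.77). Pde4d had 37, 15 and 36 (1.27) and Fhit 25, 11 and 26 (1.15). Rbfox1 was nearly even with 24, 23 and 20 (0.06), and Nkain2 had 12, 10 and 11 (0.25). At least 2-fold towards hindstomach were 3 of 9 members, against 49.2% of 1261 genes counted, and towards forestomach 0, against 0.952%. The genome-wide ratio of the pair was 0.96, and with it subtracted none of the 9 was at least 2-fold either way. With the widest 81179 peaks of each list the ratio turned to -0.36 in Fhit and -0.23 in Pde4d, and Rbfox1 was at -1.13, at least 2-fold towards forestomach.

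In small intestine against colon all 9 genes had more regions in colon. Mecom had 9 regions in intestine alone, 28 in colon alone and 26 in both (log2 -1.58). Pde4d had 17, 46 and 34 (-1.41) and Camta1 11, 30 and 30 (-1.41). Nkain2 had 9, 23 and 13 (-1.31). Tenm4, Fhit, Rbfox1 and Kcnip4 lay between -1.16 and -1.03. Auts2 had the smallest ratio at -0.39, with 32, 42 and 39. At least 2-fold towards colon were 8 of 9 members, against 53.5% of 2469 genes counted, and towards intestine 0, against 0.851%. The genome-wide ratio was -1.04, close to the median of the members at -1.16, and with it subtracted 0 members were at least 2-fold towards colon. The count was 0 too with the widest 81179 peaks, where Camta1 turned to 0.19 and Kcnip4 to 0.28.

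The comparison of E16 with E13 set proximal small intestine and hindstomach against whole E13 organs, so stage, part of the organ and isolation cannot be told apart. In intestine, Auts2 had 57 regions at E16 alone, 24 at E13 alone and 14 at both stages (log2 1.23), and Camta1 37, 17 and 4 (1.10). Rbfox1 had 61, 33 and 2, so that 2 of its 96 regions, 2.08% (0.573 to 7.28), were shared between the stages. Tenm4 shared 2 of 46 (4.35%, 1.20 to 14.5) and Pde4d 19 of 69 (27.5%, 18.4 to 39.0), the lowest and highest of the other members. Over the 9 genes 12.1% (9.70 to 14.9) were shared, over the other long genes 11.3% (10.6 to 12.0) and over all regions 20.1%. All regions away from gene ends shared 14.6%. Nkain2, with 17, 25 and 5 (log2 -0.54), and Kcnip4, with 21, 23 and 6 (-0.13), had more regions at E13 alone. At least 2-fold towards E16 were 2 of 9 members, against 28.5% of 2574 genes counted, and towards E13 0, against 4.00%. With the genome-wide ratio of 0.51 subtracted, 0 were at least 2-fold towards E16 and 1, Nkain2, towards E13.

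In hindstomach against E13 stomach the ratios were small. They ran from -0.35 in Fhit, with 32 in hindstomach alone, 41 in E13 stomach alone and 19 in both, to 0.50 in Pde4d, with 51, 36 and 22. Auts2 had 41, 41 and 23. No member was at least 2-fold towards hindstomach, against 26.1% of 2738 genes counted, or towards E13 stomach, against 4.02%. Rbfox1 again shared the smallest part between stages, 8 of 77 regions (10.4%, 5.36 to 19.2). The shared part was 18.5% over all 9 genes, 17.0% over the other long genes and 26.5% over all regions. All regions away from gene ends shared 21.3%.

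**Figure D3:**
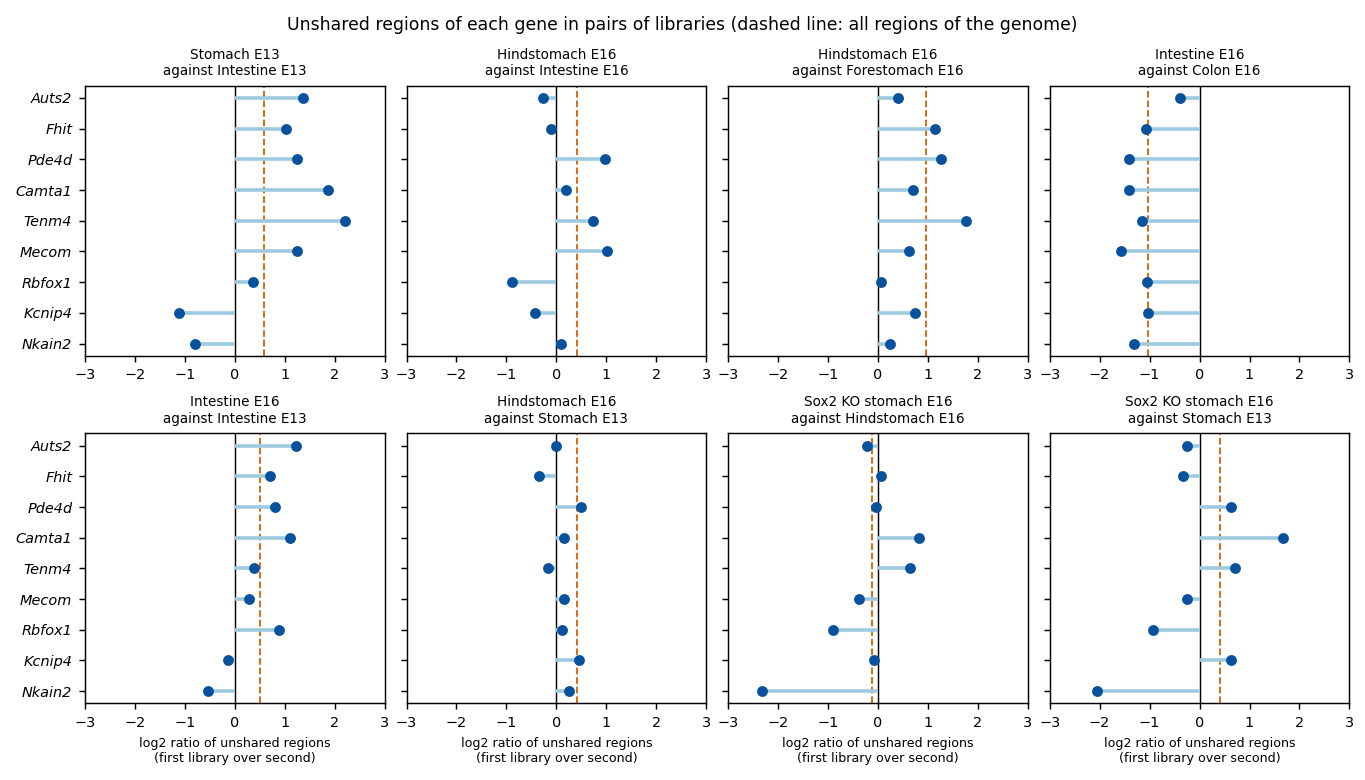
Log2 ratio of unshared regions (horizontal axis, first-named over second-named library) for the 9 genes in 8 pairs of libraries; each point is 1 gene and the dashed line is the ratio over all regions of the genome. Nkain2 in the Sox2 KO panels lies at -2.32 and -2.05, and Tenm4 at 2.21 in the E13 panel.

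The Sox2 KO stomach was set against the stomach parts of its own stage and against E13 stomach. Its part of the stomach and its isolation are not stated, so genotype cannot be told apart from these in any of the comparisons. Nkain2 had 3 regions in the KO library alone, 17 in hindstomach alone and 6 in both (log2 -2.32), so that the KO library held 15.0% of the unshared regions (5.24 to 36.0). These comparisons share the KO library. Against forestomach Nkain2 had 4, 16 and 5 (-1.87), and against E13 stomach 3, 14 and 6 (-2.05). Over 7 alternative ways of processing, the ratio stayed between -2.43 and -2.17 against hindstomach and between -2.40 and -1.77 against forestomach. Against E13 stomach it ran from -4.25 to -1.84; the lowest value came from 0 and 9 unshared regions among the widest 81179 peaks and rests on the 0.5 added to a count of 0. Of the 9 Nkain2 regions of the KO library, 3 were open in all 7 libraries and 1, of 79 bp, in the KO library alone.

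Rbfox1 was lower in the KO library too, with 19 regions in it alone, 36 in hindstomach alone and 8 in both (log2 -0.90), and with 23, 39 and 4 against forestomach (-0.75). The forestomach ratio was at least 2-fold with the widest 81179 peaks (-1.73) and with the genome-wide ratio subtracted (-1.24). Of the 20 Rbfox1 regions that hindstomach and forestomach shared, 2 were found in the KO library (10.0%, 2.79 to 30.1). E13 stomach held 3 of these 20 (15.0%, 5.24 to 36.0) and E13 intestine 2 (10.0%), so their absence was not particular to the KO library. Over all 9 genes the KO library had 94 of 206 such regions (45.6%, 39.0 to 52.5), over the other long genes 40.5% (38.7 to 42.3) and over all regions 59.0% (58.6 to 59.4). Against E13 stomach, Rbfox1 had 15, 29 and 12 (-0.93), which became -2.38 with the widest 81179 peaks of each list.

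Camta1 and Tenm4 had more regions in the KO library. Camta1 had 41 in it alone, 23 in hindstomach alone and 21 in both (log2 0.82), and 45, 18 and 17 against forestomach (1.30). Against E13 stomach it had 30, 9 and 32 (1.68), which was 0.80 with the widest 81179 peaks of each list. Tenm4 had 33, 21 and 17 against hindstomach (0.64), 41, 11 and 9 against forestomach (1.85) and 23, 14 and 27 against E13 stomach (0.70). The other 5 members lay between -0.37 in Mecom and 0.07 in Fhit against hindstomach.

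Against hindstomach, 0 of 9 members were at least 2-fold towards the KO library, beside 16.6% of 2791 genes counted, and 1 towards hindstomach, beside 12.8%. With the widest 81179 peaks these counts were 1 (Camta1) and 2 (Rbfox1 and Nkain2). Against forestomach, 2 were at least 2-fold towards the KO library, beside 38.7% of 2715 genes, and 1 towards forestomach, beside 4.46%. Against E13 stomach it was 1 towards the KO library, beside 43.3% of 1795 genes, and 1 towards E13 stomach, beside 8.19%. With the genome-wide ratio subtracted the counts were 1 and 2 against forestomach and 1 and 2 against E13 stomach. Among the stomach libraries sharing was highest with E13 stomach: 35.1% of the members' regions in either library (31.3 to 39.0) were shared by KO and E13 stomach, against 22.8% (19.7 to 26.1) by KO and hindstomach and 18.2% (15.3 to 21.4) by KO and forestomach. Among the other long genes these shares were 30.9%, 19.8% and 15.6%. Among all regions they were 39.9%, 30.6% and 26.3%, so this order was not particular to the members. With E13 intestine the KO library shared a fraction of 0.230 of the members' regions in either, about as much as with hindstomach, where that fraction was 0.228. Over all regions away from gene ends these fractions were 0.232 and 0.258. Of the 231 member regions that the KO library held and neither stomach part did, 86 (37.2%, 31.3 to 43.6) were found in E13 stomach and 41 (17.7%, 13.4 to 23.2) in E13 intestine. Over all regions of that kind the shares were close to these, at 32.8% (32.4 to 33.2) and 19.5% (19.2 to 19.9), and over the other long genes 33.7% and 21.0%.

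The pairs left over gave these ratios. In KO stomach against E16 intestine, Rbfox1 (log2 -1.30) and Nkain2 (-1.58) were at least 2-fold towards intestine and Tenm4 (1.02) towards KO. That is 1 of 9 towards KO, beside 28.5% of 3652 genes counted, and 2 towards intestine, beside 8.41%. Tenm4 was 0.82 with the genome-wide ratio subtracted. In hindstomach against colon, Rbfox1 stood farthest towards colon at -1.79, with 17 regions in hindstomach alone, 60 in colon alone and 27 in both. Towards colon 4 of 9 were at least 2-fold (Fhit, Rbfox1, Kcnip4 and Nkain2), beside 27.0% of 3401 genes counted, and 0 towards hindstomach, beside 7.44%. Of these 4, Rbfox1 alone was still 2-fold with the genome-wide ratio subtracted (-1.27) and with the widest 81179 peaks (-1.55). In forestomach against E16 intestine, Fhit (-1.07) and Kcnip4 (-1.14) were at least 2-fold towards intestine, 2 of 9 beside 17.6% of 2114 genes counted, and 0 towards forestomach, beside 11.2%. Neither remained 2-fold with the genome-wide ratio subtracted (Fhit -0.80, Kcnip4 -0.86) or with the widest 81179 peaks (-0.76, -0.95), where Nkain2 (1.47) and Mecom (1.08) were at least 2-fold towards forestomach. In forestomach against E13 stomach, Tenm4 (-1.42) was at least 2-fold towards E13 stomach, 1 of 9 beside 15.3% of 2429 genes counted, and 0 towards forestomach, beside 7.95%.

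Position along the gene was not used to choose the members, but the counts per library that it divides were. Distances are counted from the 5′ end of the gene body, and for Auts2, whose strand was not in the tables used, from its lower coordinate. The body of each gene was cut into 5 equal parts. In Rbfox1 the first part held 2 regions in the KO library, 13 in hindstomach, 16 in forestomach, 18 in E16 intestine, 20 in colon, 5 in E13 stomach and 6 in E13 intestine. The other 4 E16 libraries thus lay above the KO and both E13 libraries there. In the third part of Rbfox1 the counts were 6, 10, 7, 13, 20, 5 and 6 in the same order of libraries, with the same divide, though forestomach was only just above KO. In the fourth part they were 8, 9, 7, 12, 14, 10 and 11, without that divide. It was absent too from the second part (4, 4, 3, 5, 12, 6 and 3) and the last (5, 5, 7, 8, 11, 11 and 6).

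In Camta1 it was the KO library that differed in the first part, with 12 regions, against 3 in hindstomach, 4 in forestomach, 5 in E16 intestine, 6 in colon, 3 in E13 stomach and 1 in E13 intestine. In Pde4d the regions crowded towards the middle and the far end: the fourth part held 29.0% of the 193 body regions and the second 8.81%. Its 56 regions there included 25 of the KO library, 28 of hindstomach, 19 of forestomach, 16 of E16 intestine, 20 of colon, 18 of E13 stomach and 11 of E13 intestine, so hindstomach and the KO library were highest there. In Nkain2 the KO library had 1 region in the first part, 0 in the second, 2 in the third, 2 in the fourth and 3 in the last. Hindstomach had 6, 3, 4, 3 and 6, so the lower KO count was spread over the whole gene.

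**Figure D4:**
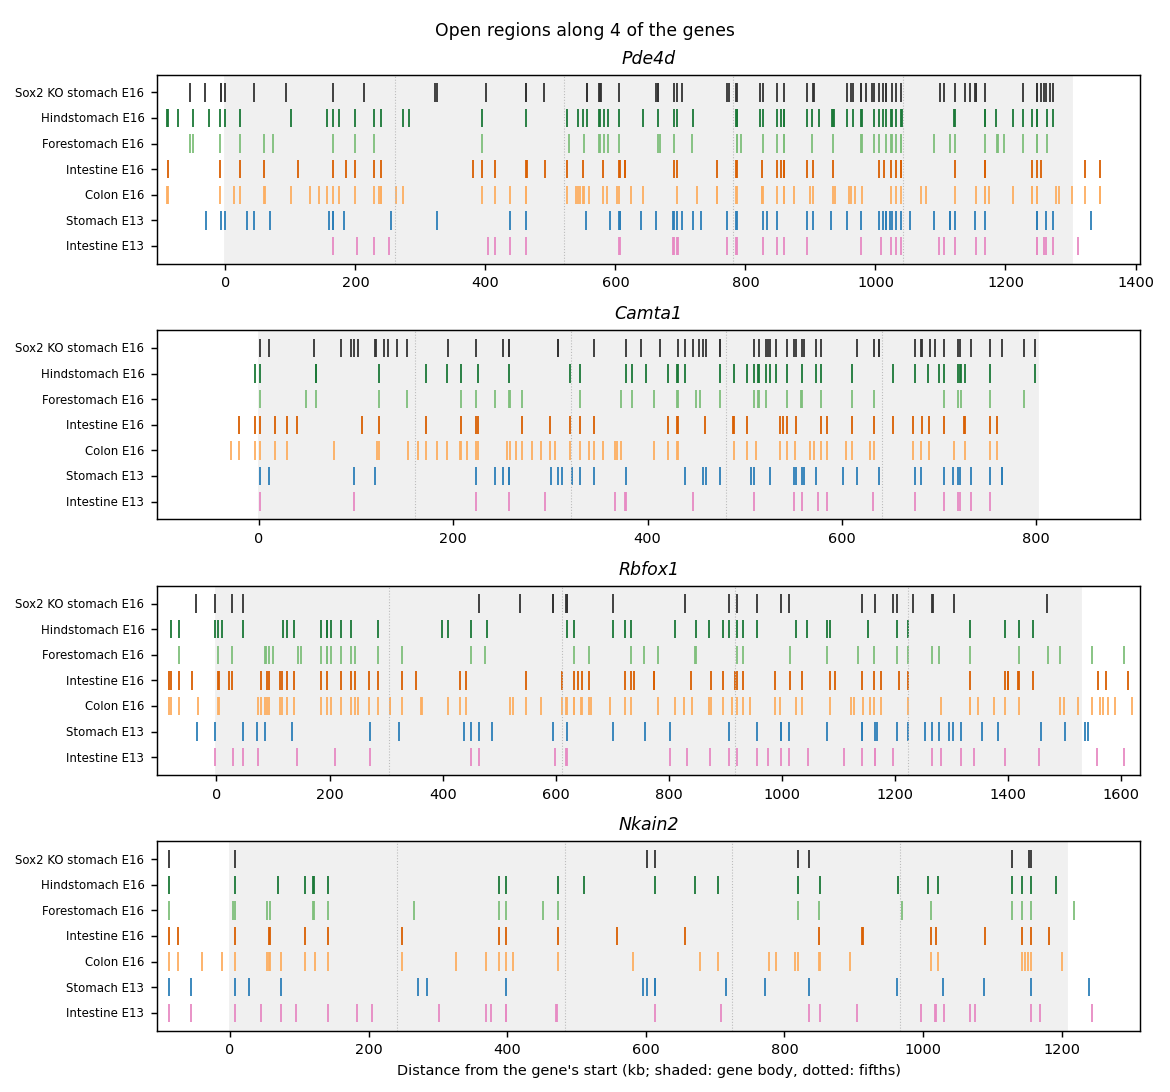
Regions of Pde4d, Camta1, Rbfox1 and Nkain2 by distance from the gene's start (horizontal axis, kb); each tick is 1 region, each row 1 library, grey the gene body and dotted lines its 5 equal parts. The KO and E13 rows of Rbfox1 are sparse near the start, where they hold 2, 5 and 6 regions in the first part, and the KO row of Nkain2 is sparse throughout.

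The densest 50 kb of each gene differed in place and in the libraries that filled it. In Mecom it lay at chr3:29984735-30031349, near the far end of the gene, with 21 regions against a mean of 14.2 per 50 kb, of which forestomach had 9 and E13 intestine 2. In Tenm4 it lay at the start, chr7:96168880-96213853, with 16 regions, of which colon had 7 and forestomach and E13 intestine 3 each. In Camta1 it lay at chr4:151300822-151349660, with 16 regions, of which the KO library had 10, hindstomach 7, forestomach 6, and each other library 5 or fewer. In Pde4d it lay at chr13:109196331-109245639, with 18 regions, of which hindstomach and colon had 7 each and E13 intestine 0.

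Most regions of the 9 genes were found in few libraries. A single library held 830 of 1452 regions (57.2%, 54.6 to 59.7), against 60.7% (60.1 to 61.4) for the other long genes and 55.3% (55.1 to 55.5) for all regions. All 7 libraries held 30 (2.07%, 1.45 to 2.93), against 1.42% (1.27 to 1.59) for the other long genes and 4.46% (4.39 to 4.53) for all regions. At the ends of protein-coding genes, within 1 kb, lay 0.895% of the members' regions and 8.32% of all regions. Away from those gene ends the shares in all 7 libraries were 1.88% (1.29 to 2.72) for the members and 2.15% (2.09 to 2.20) for all regions.

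Nkain2 had the largest share of regions in a single library, 68 of 96 (70.8%, 61.1 to 79.0), of which 20 were of E13 intestine and 16 of colon. Among the 30 regions open in all libraries, Pde4d had 9, Auts2 6, Fhit 5, Nkain2 3, Camta1, Tenm4 and Mecom 2 each and Kcnip4 1. Rbfox1 had 0 of 193, which allows up to 1.95%. Of these 30, the widest were at Nkain2, chr10:32889663-32891057 (1394 bp), which takes in the promoter printed above, at Tenm4, chr7:96209870-96211071 (1201 bp), 39.2 kb inside the gene, and at Camta1, chr4:151861709-151862809 (1100 bp), at the start of the gene. The widest in Pde4d was chr13:109685346-109686206 (860 bp), 1032 kb from the start, in the crowded part of the gene described above.

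**Figure D5:**
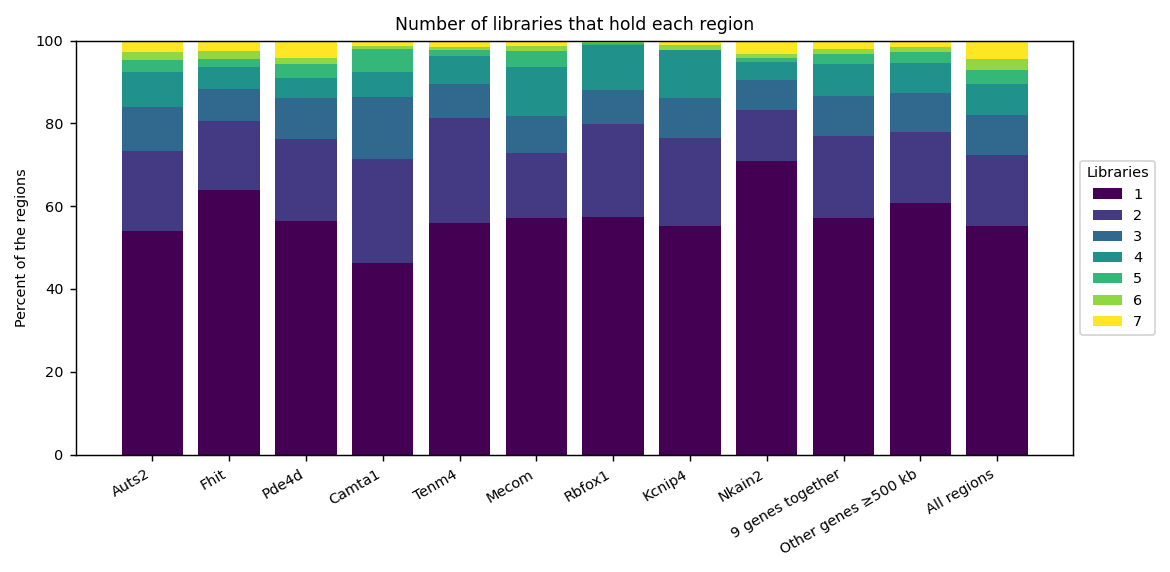
Percent of regions (vertical axis) held by 1 to 7 libraries, for each gene, for the 9 genes together, for the other genes of at least 500 kb and for all regions. Camta1 has the smallest part in a single library, 46.3%, and Nkain2 the largest, 70.8%, and Rbfox1 has none in all 7.

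All 4 stomach libraries and no intestinal library held 15 member regions, 1.03% (0.627 to 1.70) against 1.09% of all regions: 4 in Auts2, 3 in Mecom, 2 each in Fhit, Pde4d and Tenm4, 1 each in Rbfox1 and Kcnip4, and 0 in Camta1 and Nkain2. The widest were a 693 bp region at Kcnip4, chr5:49606657-49607350, 81.9 kb before the gene, and a 570 bp region in Tenm4, chr7:96524462-96525032. All 3 intestinal libraries and no stomach library held 5 regions, 0.344% (0.147 to 0.804) against 0.241% of all regions: 2 in Mecom and 1 each in Auts2, Pde4d and Camta1. The widest of these was a 380 bp region in Pde4d, chr13:109068437-109068817. E16 intestine and colon without any stomach library shared 75, 5.17% (4.14 to 6.43) against 3.86% of all regions and 4.45% of those of the other long genes. Of these 75, 16 lay in Rbfox1 and 12 in Auts2, and the widest in Rbfox1 was at chr16:6001085-6001319, 116 kb from the start. Both E16 stomach parts held 28 member regions that no intestinal library and not the KO library had, 1.93% (1.34 to 2.77) against 2.18% of all regions, with 6 each in Pde4d and Mecom. Of the 108 member regions open in all 4 E16 libraries other than KO, the KO library had 35 (32.4%, 24.3 to 41.7), and in Rbfox1 1 of 14. E13 stomach had 36 of the 108 (33.3%) and E13 intestine 39 (36.1%), and each had 1 of the 14 in Rbfox1, so the KO library did not stand apart from them. Among all regions the KO share was 54.9% (54.4 to 55.5), and each E13 share was 55.8%. Among the other long genes the KO share was 26.7% (24.5 to 29.0).

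The relatives of the 9 genes and other very long genes were counted from lists chosen with earlier results known. Of 17 relatives, 11 had at least 10 unshared regions between KO and hindstomach. Of these 11, 4 (Rbfox2, Rbfox3, Kcnip3 and Fbrsl1) were at least 2-fold towards KO, beside 16.6% of 2791 genes counted. Towards hindstomach it was 1 (Nkain3), beside 12.8%, and the median log2 ratio was 0.26. As the lists were chosen with earlier results known, nothing is read from these counts. Rbfox2, a splicing factor like Rbfox1, had 32 regions in the KO library, 19 in hindstomach, 19 in forestomach, 20 in E16 intestine, 16 in colon, 24 in E13 stomach and 18 in E13 intestine, so the library with the most Rbfox2 regions, KO, had the fewest Rbfox1 regions. Nkain3 had 10 in the KO library, 19 in hindstomach, 18 in forestomach, 18 in E16 intestine, 30 in colon, 19 in E13 stomach and 14 in E13 intestine. The KO library was the lowest for Nkain3 as for Nkain2, whereas at E13 Nkain3 had more regions in stomach and Nkain2 more in intestine. Of 16 other very long genes, 0 were at least 2-fold towards KO against hindstomach, beside the same 16.6%. Towards hindstomach it was 3 (Lrp1b, Dmd and Cntnap2), beside 12.8%, and the median was -0.42. Lrp1b, a lipoprotein receptor relative, had 12 regions in the KO library against 33 in hindstomach, 31 in forestomach and 41 in E13 stomach. Over all 218 other long genes, 4.87% of the KO library's regions lay at them, the lowest of the 7 libraries, against 5.36% in hindstomach.

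For each gene the other genes with the most similar division of regions over the 7 libraries were found by the summed absolute difference of library shares, among 2165 candidates with at least 30 regions. For Rbfox1 the nearest was Cntnap2, a neurexin relative of axons, at 0.0665 beside a median of 0.316, with 28 regions in the KO library and 81 in colon. For Nkain2 it was Malrd1 (0.0720 beside 0.339), with 7 regions in the KO library and 15 in hindstomach. Farp1 was nearest to Camta1 (0.0460), Fry to Tenm4 (0.0511), Prdm1 to Pde4d (0.0438) and Ptprg to Fhit (0.0544). Dennd1b was nearest to Auts2 (0.0526), Slc13a1 to Mecom (0.0547) and Ano4 to Kcnip4 (0.0519). Between members the smallest difference was 0.108, between Mecom and Pde4d, and the largest 0.420, between Nkain2 and Tenm4.

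The 100 kb limit left out regions for 7 of the 9 genes. The farthest regions kept lay between 29.3 kb from Camta1 and 98.3 kb from Kcnip4, and the nearest left out at 101 kb for Pde4d and Tenm4, 102 kb for Rbfox1 and Kcnip4, 104 kb for Auts2, 106 kb for Fhit and 109 kb for Mecom. Tenm4 and Auts2 had the most beyond the limit, at 125 and 100 regions.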

How the data were processed

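ATAC-seq peak lists of 7 mouse libraries, 1 per group, were used as deposited: each has 3 columns, chromosome, start and end, whose unit is other than a signal, so no normalization, peak height or read depth is given. Per the submitters' processing notes the tools were cutadapt, Bowtie2 and MACS2 with GRCm38/mm10; their versions, thresholds and whether libraries were pooled are not stated there. The files do not say if positions start at 0 or 1, and regions are printed as deposited. The precision of a share rests on the number of regions alone.

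Peaks on chromosomes 1 to 19 and X were merged where they overlapped by at least 1 bp. Regions were assigned to the nearest RefSeq protein-coding gene body within 100 kb. Pairs of libraries were described by unshared regions with a pseudocount of 0.5 and a 2-fold limit among genes with at least 10 unshared regions, with no test. Members, lists and rules were chosen with earlier results of these data known. Named are the 9 members, 17 relatives and 16 other very long genes from lists, and the 3 genes most alike to each member, of which part is printed. Alternatives were gene body only, 10 kb, merging over gaps of 100 bp, the widest 81179 peaks of each list, regions away from gene ends, a pseudocount of 1, 1.5-fold and subtraction of the genome-wide ratio. The counting was tested on simulated data. Python 3.11.15, numpy 2.4.6, pandas 2.3.3 and matplotlib 3.10.9 were used.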

Additional observations from a re-analysis of the deposited data

Results flagged for a closer look

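In 4 genes the log2 ratio of unshared regions in stomach over intestine had opposite signs at the 2 stages, which was not tested for want of replicates. With E16 (hindstomach over intestine) first and E13 second, it was -0.27 and 1.36 in Auts2, -0.10 and 1.02 in Fhit, -0.88 and 0.36 in Rbfox1, and 0.10 and -0.80 in Nkain2. With the genome-wide ratio subtracted they are -1.29 and -0.24 in Rbfox1 and -0.30 and -1.39 in Nkain2, so that neither gene then has opposite signs. Camta1 then does have opposite signs, at -0.22 and 1.28.

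In 4 genes the ratio of E16 over E13 had opposite signs in stomach (hindstomach) and intestine, which was not tested either. With stomach first and intestine second, it was -0.35 and 0.70 in Fhit, -0.16 and 0.39 in Tenm4, 0.45 and -0.13 in Kcnip4, and 0.26 and -0.54 in Nkain2. With the genome-wide ratio subtracted the values of Tenm4 are -0.57 and -0.12 and those of Nkain2 -0.16 and -1.05, so that both then have 1 sign. The same subtraction gave opposite signs to Auts2 (-0.41 and 0.72), Camta1 (-0.26 and 0.59) and Rbfox1 (-0.29 and 0.37).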

How the results depend on the processing

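No paired analysis was possible because each group has 1 library, and leaving out a library would empty its group. All 117 log2 ratios of members kept their direction, or moved by less than their counting interval, with gene bodies only, a 10 kb limit, gaps of 100 bp merged, gene ends left out and a pseudocount of 1. Depth is unknown, and the lists give the width of a peak but not its strength.

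With the widest 81179 peaks of each list the log2 ratio changed sign, among those at least 2-fold, for Fhit (-0.36) and Pde4d (-0.23) in hindstomach against forestomach, and for Camta1 (0.19) and Kcnip4 (0.28) in E16 intestine against colon; Kcnip4 there was 0.00 with the genome-wide ratio subtracted. Counts of members at least 2-fold, first-named then second-named library, became with the widest peaks 2 and 2 at E13 (stomach, intestine), 0 towards colon, 1 and 1 in hindstomach and forestomach, 2 towards E16 intestine against hindstomach, 1 and 1 in E16 and E13 intestine, 1 and 2 in KO and hindstomach, 2 towards forestomach against KO and 0 towards KO against E13 stomach. With the genome-wide ratio subtracted they were 2 and 2 at E13, 0 towards colon, 0 towards hindstomach against forestomach, 0 and 1 in hindstomach and E16 intestine, 0 and 1 in E16 and E13 intestine, 1 and 2 in KO and forestomach and 2 towards E13 stomach against KO. At 1.5-fold they were 2 and 2 in KO and hindstomach, 4 and 2 in KO and forestomach, 4 and 2 in KO and E13 stomach, 6 towards hindstomach against forestomach, 3 and 1 in hindstomach and E16 intestine, 5 towards E16 against E13 intestine and 2 towards E13 intestine against E13 stomach, by construction of the lower limit. Away from gene ends 0 members were at least 2-fold towards hindstomach against E16 intestine, and 1 towards E16 against E13 intestine with gene bodies only or 10 kb.

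The 9 genes' percent of a library's regions was, away from gene ends, 0.463 in KO, 0.436 (hindstomach), 0.448 (forestomach), 0.472 (E16 intestine), 0.461 (colon), 0.507 (E13 stomach) and 0.453 (E13 intestine), by construction of a smaller total. In gene bodies it was 0.339 (hindstomach), 0.359 (E16 intestine), 0.369 (colon) and 0.387 (E13 stomach), and within 10 kb 0.370 in E16 intestine and 0.375 in colon. The cause of the changes with width was not tested.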
